A study of Mus musculus with 12 samples.

Results

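The miRNAs described here are mmu-miR-199a-5p, mmu-miR-199a-3p and mmu-miR-214, which the long noncoding RNA Dnm3os carries as hairpins within its transcript. They were taken by name, 3 of the 650 miRNA names with probes on the array, 611 of which are mouse names. They were chosen by their shared host transcript and with their scaled signals on these arrays, over all 6 groups, already known, so each adjusted p below gives their place among the 145 miRNAs tested and is not an independent test. The study measured miRNAs in mouse embryonic fibroblasts (MEFs), cells grown out of embryos, here of C57BL/6 background. Tunicamycin blocks N-linked glycosylation of proteins in the endoplasmic reticulum (ER), and the design asked which miRNA changes under it depend on ATF4, a transcription factor of the ER stress response. The 6 groups were ATF4KO MEFs untreated, with 2 ug/mL tunicamycin for 12 h and with it for 24 h, and ATF4WT MEFs under the same 3 conditions. They are called KO and WT below, and 2 arrays from independent experiments stand for each group. How many embryos or isolates gave the cells of each genotype is not given in the sources used here, and no Atf4 mRNA was measured that could check the genotype labels.

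Dnm3os is transcribed from within the Dnm3 gene on the opposite strand, and its loss in mice gives skeletal defects. It is active in mesenchymal cells, where the transcription factor Twist1 drives it, and fibroblasts are known for high levels of its miRNAs. Each hairpin is cut into a short duplex, from which either arm can enter an Argonaute protein and guide it to mRNAs that match bases 2 to 8, the seed. In mouse osteoblasts miR-214 is known to target Atf4 mRNA and to lower bone formation, and in human liver cancer cells the cluster has been tied to regulators of the unfolded protein response. When misfolded proteins build up in the ER, the kinase PERK slows translation in general while ATF4 protein is made, and ATF4 then turns on genes of amino acid supply and redox balance.

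The mature sequences, 5′ to 3′ and from RefSeq (GRCm38.p6), are given because the probes read them and because shared letters decide which hairpins a probe can report. Capitals mark the seed, bases 2 to 8. All 3 names matched a mature entry.
mmu-miR-199a-5p: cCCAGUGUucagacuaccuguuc
mmu-miR-199a-3p: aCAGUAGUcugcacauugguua
mmu-miR-214: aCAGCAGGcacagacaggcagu
mmu-miR-214*: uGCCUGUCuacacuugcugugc
stretch of the Mir199b hairpin: cCCAGUGUuuagacuaccuguuc
The 3 members have 3 different seeds. Among 1679 mature mouse names in the table, no other carried the miR-199a-5p seed, miR-199b-3p was the other name with the miR-199a-3p seed, and miR-761 was the other with that of miR-214. The miR-761 probes were well above background on 0 of 12 arrays. The entry for miR-199b-3p differs from miR-199a-3p by 0 bases, so the miR-199a-3p signal can come from the Mir199b hairpin too. The stretch of the Mir199b hairpin that lines up with miR-199a-5p differs from it by 1 base, C10U, counted from 1 at the 5′ end of miR-199a-5p and outside the seed. Whether the miR-199a-5p probes also read that stretch was not tested.

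Both arms of miR-199a come from hairpins at more than 1 place in the genome. On the plus strand of chromosome 1, miR-199a-5p lies at chr1:162217844-162217866 and miR-199a-3p at chr1:162217883-162217904, in Mir199a-2 (chr1:162217814-162217923). On the minus strand of chromosome 9, the same letters lie at chr9:21496537-21496559 and chr9:21496498-21496519, in Mir199a-1 (chr9:21496495-21496564), which sits within the bounds of Dnm2 (chr9:21424908-21507759). miR-214 lies at chr1:162223438-162223459 in Mir214 (chr1:162223368-162223477), and its partner arm miR-214* lies at chr1:162223397-162223418. Mir199b (chr2:32318460-32318569) sits within Dnm1 (chr2:32308471-32353349), and the stretch shown above is at chr2:32318485-32318507. Dnm3os spans chr1:162217623-162225550, 7928 bases within the bounds of Dnm3 (chr1:161982450-162478321). Mir199a-2 starts 191 bases after the Dnm3os start and Mir214 starts 5445 bases after the end of Mir199a-2. By identical letters, an array signal for miR-199a-5p can thus come from Dnm3os and Mir199a-1, and one for miR-199a-3p from these and Mir199b. Whether Mir199b adds to the miR-199a-5p signal too, by the stretch that differs by 1 base, was not tested. miR-214 has 1 locus.

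Because Dnm3os carries hairpins of all 3 members, the window around its start is shown. It runs from 250 bases before the start to 50 after it on the plus strand (RefSeq, GRCm38.p6, chr1:162217373-162217672). Matches to the E-box letters are in capitals. Dnm3os RNA itself was not measured.
Dnm3os window: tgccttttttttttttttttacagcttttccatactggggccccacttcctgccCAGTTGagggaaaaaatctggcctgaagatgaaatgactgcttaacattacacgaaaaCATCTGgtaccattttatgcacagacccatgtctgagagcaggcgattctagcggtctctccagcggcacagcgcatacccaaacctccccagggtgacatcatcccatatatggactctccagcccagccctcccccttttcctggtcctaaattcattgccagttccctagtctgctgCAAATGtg
The E-box, CANNTG, is the motif of bHLH factors such as Twist1. It occurred 3 times, starting at positions 55, 113 and 293 of the window, and 72.3% of 32851 promoter windows of the same length hold at least 1. The C/EBP-ATF element TGATGNAA, a motif of ATF4 dimers, had 0 matches on either strand, and 3.97% of windows hold it. The cAMP response element TGACGTCA (1.79% of windows), the unfolded protein response element TGACGTGG (0.676%) and the ER stress element (0.119%) also had 0 matches. No 2 of the matches shown overlap, and 0 matches says only that these letters are not in this window.

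Each member was read by 2 probes, and the signal of a miRNA was the sum of its probes' mean background-subtracted signals. The signal was divided by the 75th percentile of the 82 miRNAs that were well above background on all 12 arrays, so a scaled signal of 1 equals that percentile on its own array. The percentile lay between 203.5 and 791.2 units of raw signal, and 92 to 164 names per array were well above background. Replicate arrays were close in the untreated groups, with a pooled SD over miRNAs of 0.13 (KO) and 0.15 (WT) on the log2 scale. They were farther apart under tunicamycin, with 1.11 and 0.95 in KO cells at 12 h and 24 h and 1.23 and 0.51 in WT cells. All 8 tunicamycin arrays were on slide 2 and all 4 untreated arrays on slide 1, which means that treatment cannot be told apart from slide. KO arrays lay in row 2 and WT arrays in row 1 of each slide, and genotype cannot be told apart from row either. Of 9 fibroblast and mesenchyme markers, a list that holds the 3 members, 8 were well above background on at least 1 array and their summed scaled signal was 23.1 to 49.0 per array. Markers of epithelium (0 of 7), nerve cells (0 of 4), muscle (1 of 4), blood and endothelium (1 of 9) and pluripotent cells (1 of 9) summed to at most 0.200 on any array.

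All 3 members were well above background on 12 of 12 arrays, with 0 saturated spots. Raw signals ran over 28.9 to 789 units for miR-199a-5p, 256 to 3254 for miR-199a-3p and 56.1 to 1504 for miR-214. After scaling, the highest array exceeded the lowest by 13.3-fold, 6.25-fold and 12.7-fold in the same order. Levels are compared below only within a miRNA, since probes differ in brightness.

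miR-199a-5p, the arm whose letters are in the table under its own name alone, was highest in untreated KO cells. In KO cells its scaled signal was 1.06 and 0.998 untreated, 0.584 and 0.509 at 12 h, and 0.594 and 0.246 at 24 h (replicates 1 and 2). In WT cells it was 0.196 and 0.186 untreated, 0.0799 and 0.0984 at 12 h, and 0.101 and 0.0817 at 24 h. Every KO array was above every WT array, and within each genotype both untreated arrays were above all 4 tunicamycin arrays. After scaling, the lowest KO array was replicate 2 at 24 h. Before scaling, the KO arrays at 24 h (replicates 1 and 2) read 121 and 139 units for miR-199a-5p. They read 599 and 746 for miR-199a-3p and 291 and 264 for miR-214. The percentiles that divided these signals were 203.5 and 566.3, so the low scaled values of replicate 2 rested largely on its higher percentile.

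miR-199a-3p, the arm shared with Mir199b, had its highest arrays in untreated KO cells too. In KO cells its scaled signal was 3.99 and 4.11 untreated, 2.85 and 2.65 at 12 h, and 2.94 and 1.32 at 24 h. In WT cells it was 1.76 and 1.77 untreated, 0.658 and 0.812 at 12 h, and 1.01 and 0.722 at 24 h. At each time both KO arrays were above both WT arrays, but KO replicate 2 at 24 h lay below the untreated WT arrays.

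miR-214, which lies downstream of Mir199a-2 in the same transcript, had a profile like theirs. In KO cells its scaled signal was 2.00 and 1.90 untreated, 1.27 and 1.17 at 12 h, and 1.43 and 0.466 at 24 h. In WT cells it was 0.587 and 0.531 untreated, 0.182 and 0.216 at 12 h, and 0.268 and 0.158 at 24 h. As for miR-199a-3p, both KO arrays were above both WT arrays at each time, and KO replicate 2 at 24 h lay below the untreated WT arrays.

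**Figure D1:**
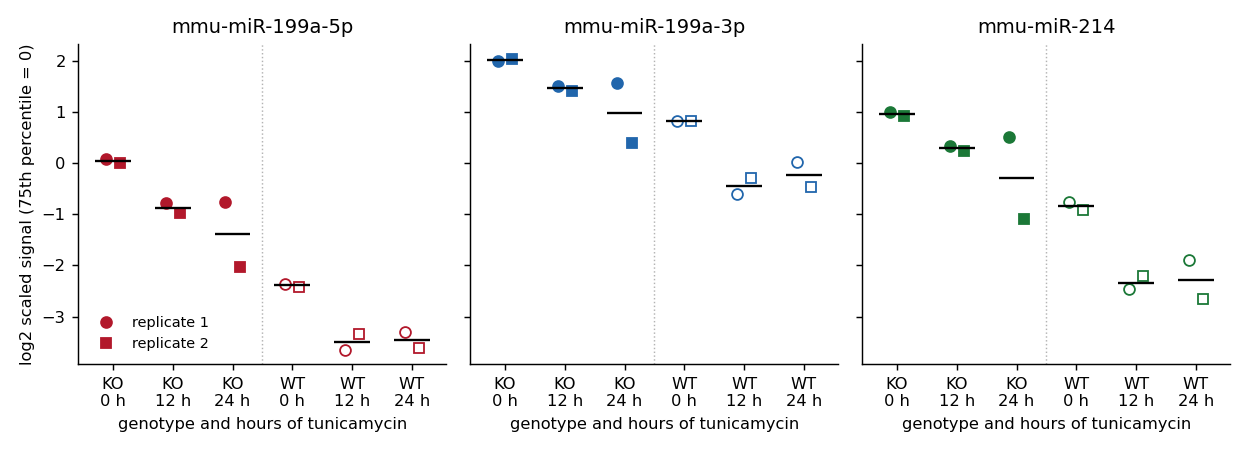
Log2 scaled signal (array's 75th percentile = 0) of miR-199a-5p, miR-199a-3p and miR-214 on each of the 12 arrays, by genotype and hours of tunicamycin; filled symbols are KO, open symbols WT, circles replicate 1, squares replicate 2, and lines group means. Within each panel the 3 KO means lie above the 3 WT means, and KO replicate 2 at 24 h lies well below its partner.

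The 6 group means fell in 1 order for each of the 3 members. Untreated KO was highest, followed by KO at 12 h, KO at 24 h, untreated WT, WT at 24 h and WT at 12 h. For miR-199a-5p the log2 means in that order were 0.04 ± 0.06, −0.88 ± 0.14, −1.39 ± 0.90, −2.39 ± 0.05, −3.46 ± 0.22 and −3.50 ± 0.21 (SD, n = 2). For miR-199a-3p they were 2.02 ± 0.03, 1.46 ± 0.07, 0.98 ± 0.82, 0.82 ± 0.01, −0.23 ± 0.35 and −0.45 ± 0.22. For miR-214 they were 0.97 ± 0.05, 0.28 ± 0.08, −0.29 ± 1.14, −0.84 ± 0.10, −2.28 ± 0.54 and −2.33 ± 0.18. Neighbours that overlapped were KO at 12 h and 24 h and WT at 24 h and 12 h, for all 3 members, and KO at 24 h and untreated WT for miR-199a-3p and miR-214. Untreated KO did not overlap KO at 12 h, and untreated WT did not overlap WT at 24 h, for any of the 3. With 2 arrays a group such gaps, and those described above array by array, are easily met. Their share over all tested miRNAs is not given, so they are not a trait of the members.

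The members were higher in KO than in WT fibroblasts, by 2 to 6 times depending on the member and the time. Over the mean of the 3 times, miR-199a-5p was 5.19-fold higher in KO cells (log2 2.37 ± 0.21 SE, limma adjusted p = 3.28e-04), ranking 2 of 145 from the highest. miR-214 was 4.39-fold higher (2.14 ± 0.28, limma adjusted p = 0.00128), ranking 3. miR-199a-3p was 2.71-fold higher (1.44 ± 0.20, limma adjusted p = 0.00147), ranking 4. All 3 passed the adjusted threshold of 0.05 as higher in KO, where 16.6% of the tested miRNAs passed as higher and 26.9% as lower. The median difference over all 145 was −0.08. In whole-culture RNA, fewer cells that make a miRNA and less of it per cell cannot be told apart. The call of all 3 held without each array in turn. With the 75th percentile taken over all names miR-199a-3p missed the threshold (1.35, adjusted p = 0.115). The call was lost for all 3 with normexp background correction with an offset of 50 units (adjusted p = 0.255 to 0.326). The local background reached 172397 units on 1 untreated KO array and 13725 units on WT replicate 2 at 24 h. On any other array it reached at most 522 units. With such outlying spots left out all 3 were called, at 1.19 for miR-199a-5p, 1.40 for miR-214 and 1.22 for miR-199a-3p (log2, adjusted p = 0.00258 each). The offset, added to every signal, shrinks differences between dim signals by construction.

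In untreated cells the KO to WT ratio was 5.40 for miR-199a-5p (log2 2.43 ± 0.37, limma adjusted p = 0.00522), 3.49 for miR-214 (1.81 ± 0.49, adjusted p = 0.0268) and 2.30 for miR-199a-3p (1.20 ± 0.35, adjusted p = 0.0376). All 3 were called higher, against 6.90% of tested miRNAs called higher and 25.5% called lower. The median over all tested miRNAs was −0.49 here, so the members were higher in KO cells while the middle of the tested miRNAs was lower. With another scaling that median was −0.21 (median scaling), −0.14 (no scaling) or 0.00 (75th percentile over all names), so the lower middle depended on the scaling. With no scaling 14 miRNAs were called higher against 12 lower, where 10 and 37 were called with the 75th percentile. Median scaling called 6 higher and 8 lower, and the 75th percentile over all names called 1 and 0. The members' difference stayed above 0 under every scaling run, but the calls did not hold under each. No member was called with quantile normalization (adjusted p = 0.110 to 0.256), with the 75th percentile over all names (0.118 to 0.368) or with normexp (0.486 to 0.635), though all 3 were with normexp and no outlying spots. Median scaling left miR-199a-5p alone (adjusted p = 0.0642 for miR-214 and 0.0796 for miR-199a-3p), as did the total gene signal that the scanner software computes (0.130 each). With miRNAs well above background on at least 1 array tested, miR-199a-3p missed the threshold (0.0571). The 2 arrays of each group nearly coincided, yet leaving out any 1 of the 4 untreated arrays left miR-199a-5p as the single member called. Adjusted p was then 0.126 to 0.138 for miR-199a-3p and 0.0983 to 0.120 for miR-214. Without either KO array at 12 h, which shared the estimate of spread, miR-199a-3p missed the threshold (adjusted p = 0.0613). The summed fibroblast markers were 37.9 to 38.3 on the untreated KO arrays and 48.8 to 49.0 on the untreated WT arrays, and their part in the result was not tested.

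After 12 h of tunicamycin the KO to WT ratio was 6.15 for miR-199a-5p (log2 2.62 ± 0.37, limma adjusted p = 0.00427), 6.14 for miR-214 (2.62 ± 0.49, adjusted p = 0.0115) and 3.76 for miR-199a-3p (1.91 ± 0.35, adjusted p = 0.0115). They ranked 2, 3 and 4 of 145, and all 3 were called higher where 14.5% of tested miRNAs were called higher and 10.3% lower. The median of all tested was 0.05. Without KO replicate 1 at 12 h, 1 member stayed called. No member was called with quantile normalization (adjusted p = 0.155 to 0.231), with the 75th percentile over all names (0.268 to 0.450) or with normexp (0.821 to 1.00). With normexp and no outlying spots miR-199a-5p missed the threshold (1.26, adjusted p = 0.0575) and the others passed.

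After 24 h the ratio was 4.20 for miR-199a-5p (log2 2.07 ± 0.37, limma adjusted p = 0.0121) and 3.96 for miR-214 (1.98 ± 0.49, adjusted p = 0.0352), and both were called higher. For miR-199a-3p the ratio was 2.30 with adjusted p = 0.0696, which missed the threshold. Higher calls made up 7.59% of the tested miRNAs and lower calls 7.59%, with a median difference of 0.00. Within the replicate 1 scan the KO minus WT difference at 24 h was 2.56, 1.54 and 2.41 for miR-199a-5p, miR-199a-3p and miR-214. Within the replicate 2 scan it was 1.59, 0.87 and 1.56, with the low KO array on top of the difference. Without that array the differences were 2.71, 1.78 and 2.79 and miR-199a-3p was called too (adjusted p = 0.00239). Without its partner they were 1.44, 0.62 and 1.18, and miR-199a-5p and miR-214 were called (adjusted p = 0.00475 and 0.0423). Without either WT array at 24 h no member was called (miR-199a-5p adjusted p = 0.0541 and 0.0708), and without any 1 of the untreated arrays or the KO arrays at 12 h miR-214 was lost (adjusted p = 0.0667 to 0.0767). With the scan as a fixed block miR-199a-5p alone stayed called (adjusted p = 0.0269, against 0.0540 for miR-214), and with it as a random block all 3 were called (0.0432 for miR-199a-3p). miR-199a-3p also passed with no scaling (adjusted p = 0.0388) and when miRNAs well above background on all arrays were tested (0.0364).

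The 24 h calls of miR-199a-5p and miR-214 ended under several settings. With normexp the differences were 0.08 and 0.53 (adjusted p = 0.955 and 0.729), and without outlying spots 0.66 and 1.00 (0.384 and 0.216). Both calls were also lost with median scaling (adjusted p = 0.0661 and 0.122), quantile normalization (0.587 each), the 75th percentile over all names (0.562 and 0.593) and the spread of the compared groups alone (0.245 and 0.377). miR-214 alone was lost with the total gene signal (0.0823), the mean of the probes' log2 signals (0.0510) and the wider filter (0.0607).

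**Figure D2:**
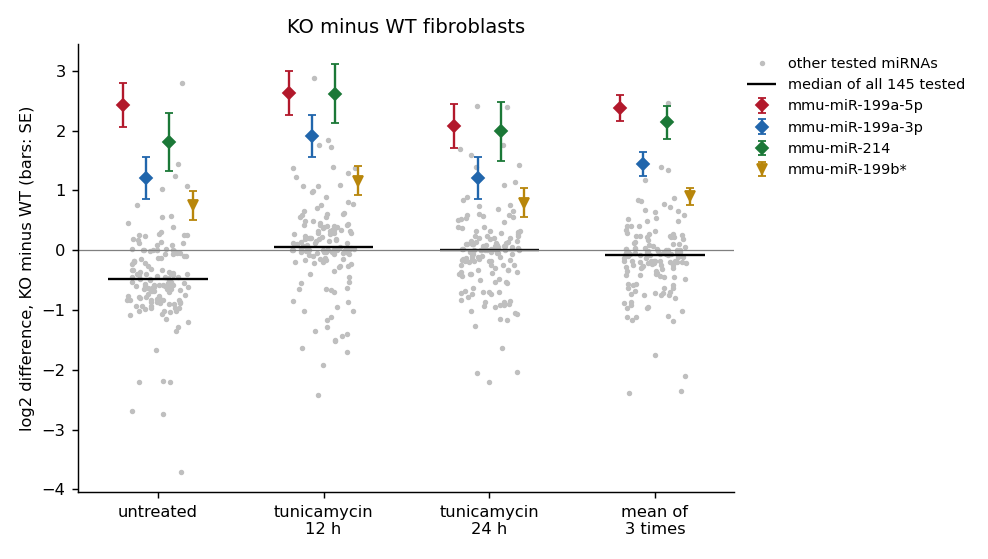
Log2 difference, KO minus WT, untreated, at 12 h and 24 h of tunicamycin and as the mean of the 3 times; diamonds are the 3 members and the triangle is mmu-miR-199b*, with SE bars from the fit, grey points are the other tested miRNAs and the black line is the median of all 145. The members lie between 1.20 and 2.62 and near the top of the grey points each time, and miR-199b* lies lower, between 0.75 and 1.16.

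The scans gave the same sign in every pair of arrays. Untreated, the difference was 2.44 and 2.42 for miR-199a-5p, 1.18 and 1.22 for miR-199a-3p and 1.77 and 1.84 for miR-214 in scans 1 and 2. At 12 h it was 2.87 and 2.37, 2.11 and 1.71, and 2.80 and 2.44 for the same members in scans 3 and 4. The 2 probes of a member gave like values for the mean of the 3 times, 2.39 and 2.27 for miR-199a-5p, 1.48 and 1.42 for miR-199a-3p and 2.25 and 2.11 for miR-214. The dimmer miR-199a-5p probe was well above background on 6 arrays and the dimmer miR-214 probe on 11.

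Tunicamycin arrays were below untreated arrays for each member in both genotypes, but few of these differences passed the test. In KO cells at 12 h the log2 difference was −0.92 for miR-199a-5p (± 0.37 SE, limma adjusted p = 0.289), −0.56 for miR-199a-3p (± 0.35, adjusted p = 0.560) and −0.68 for miR-214 (± 0.49, adjusted p = 0.561). At 24 h in KO cells the differences were −1.43, −1.04 and −1.26 (adjusted p = 0.109, 0.191 and 0.219). No member passed in KO cells, where 0.690% of tested miRNAs were called lower at 12 h and 0.690% at 24 h. The 3 ranked 2, 11 and 6 from the lowest of 145 at 12 h, and 1, 5 and 2 from the lowest at 24 h. The medians over all tested miRNAs were 0.06 and 0.20. Without KO replicate 1 at 24 h, which left the low array alone, the 24 h differences were −2.07, −1.62 and −2.07 and all 3 were called lower. Without KO replicate 2 they were −0.79, −0.46 and −0.45 and none was called (adjusted p = 0.0555, 0.291 and 0.426). Without either of these arrays, which shared the estimate of spread, miR-199a-5p was called lower at 12 h (adjusted p = 0.0137).

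In WT cells at 12 h, miR-199a-3p fell to 41.5% of its untreated level (log2 −1.27 ± 0.35, limma adjusted p = 0.0335) and was the 1 member called. miR-199a-5p had −1.10 ± 0.37 (adjusted p = 0.0615) and miR-214 had −1.49 ± 0.49 (adjusted p = 0.0572). Lower calls made up 30.3% of the tested miRNAs, and the median over all of them was −0.32. At 24 h in WT cells the differences were −1.07, −1.04 and −1.44 for miR-199a-5p, miR-199a-3p and miR-214, each with adjusted p = 0.0909, where 15.2% of tested miRNAs were called lower and the median was −0.17. The miR-199a-3p call at 12 h was lost without any 1 of the untreated or 12 h arrays of either genotype, which shared the estimate of spread. Leaving out either KO array at 24 h left the differences of the 3 members in WT cells unchanged. It moved their adjusted p through the shared estimate of spread. The call was also lost with normexp (with or without outlying spots), median scaling, quantile normalization, the 75th percentile over all names, the deposited table and total gene signal (adjusted p = 0.0599 to 1.00). With no scaling all 3 members were called lower in both genotypes at both times, as were other tested miRNAs. In WT cells 36 of all tested miRNAs were then called lower at 12 h and 63 at 24 h. The medians over all of them were −0.51 and −0.94. In KO cells the counts were 18 and 55, with medians of −0.58 and −0.77. With the deposited table all 3 members were called lower at 24 h in both genotypes. Shares over all tested miRNAs are not given for the deposited table or for fits without an array. They are also not given for the spread of the compared groups alone or for other filters. The 2 tunicamycin times share their untreated arrays, so their differences are not independent of each other.

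**Figure D3:**
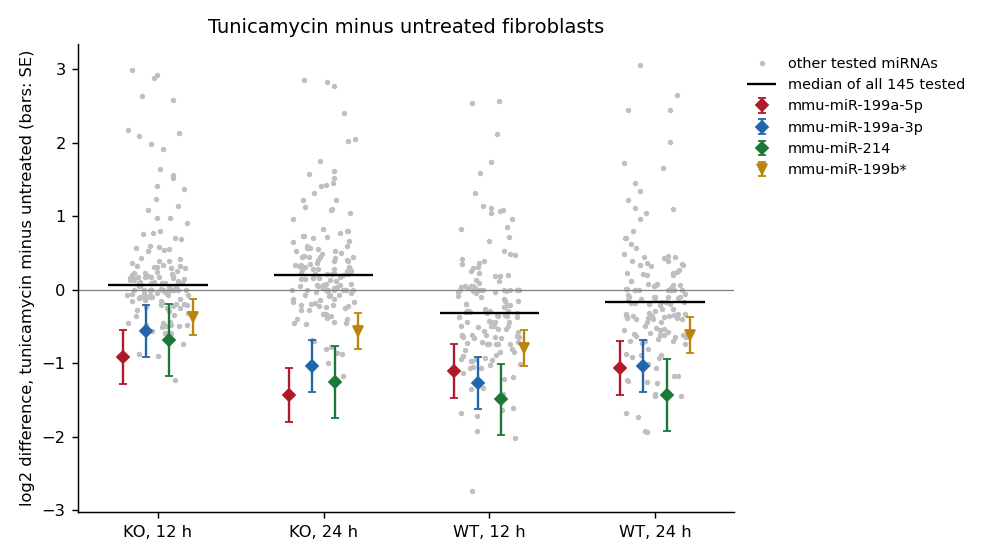
Log2 difference, tunicamycin minus untreated, for KO and WT cells at 12 h and 24 h; symbols as in the plot of KO minus WT. All 3 members lie below 0 and below the median of all 145 tested miRNAs in each of the 4 comparisons, and the single member called is miR-199a-3p in WT cells at 12 h.

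The tunicamycin responses of KO and WT cells were compared directly by the difference of their log2 differences. At 12 h, KO response minus WT response was 0.19 ± 0.52 for miR-199a-5p, 0.71 ± 0.50 for miR-199a-3p and 0.81 ± 0.69 for miR-214 (SE). At 24 h it was −0.36 ± 0.52, 0.0028 ± 0.50 and 0.18 ± 0.69. No member passed (limma adjusted p = 0.418 to 1.00), where 22.8% of tested miRNAs were called in either direction at 12 h and 8.28% at 24 h. At these errors, differences of the size seen here were not detectable. Without KO replicate 1 at 24 h, miR-199a-5p was called at 24 h (−1.0, adjusted p = 0.0292), and without KO replicate 2 it was 0.28 (adjusted p = 0.487). With the spread of the compared groups alone, miR-199a-3p and miR-214 were called at 12 h (adjusted p = 0.0274 and 0.0174).

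Between 12 h and 24 h no member passed. The later minus the earlier time was −0.51, −0.48 and −0.58 for miR-199a-5p, miR-199a-3p and miR-214 in KO cells and 0.03, 0.23 and 0.06 in WT cells. Limma called 0% of tested miRNAs in either genotype, and 10 in KO cells and 5 in WT cells had an unadjusted p under 0.05. The KO values rested on replicate 2 at 24 h. They were −1.15, −1.06 and −1.39, and called, without its partner, and 0.12, 0.10 and 0.23 without replicate 2 itself.

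The scaled signals of miR-199a-5p and miR-199a-3p did not keep a fixed ratio across genotypes. The miR-199a-3p signal can also come from Mir199b, so this ratio does not read the arms of the miR-199a hairpins alone. The part of Mir199b in this ratio, through either signal, was not tested. The log2 ratio of miR-199a-5p to miR-199a-3p was −1.91 and −2.04 in untreated KO cells, −2.29 and −2.38 at 12 h and −2.31 and −2.42 at 24 h. In WT cells it was −3.17 and −3.25 untreated, −3.04 and −3.05 at 12 h and −3.33 and −3.14 at 24 h. Every KO array was above every WT array, by 1.23 untreated, 0.71 at 12 h and 0.87 at 24 h (log2, difference of group means), against a pooled replicate SD of 0.08. The change was not kept under every setting. With the mean of the probes' log2 signals the change was 0.95, −0.30 and 0.0248, and with normexp background correction without outlying spots it was 0.48, −0.34 and −0.25. The miR-199a-5p signal was low in WT cells, and its dimmer probe was well above background on 6 of 12 arrays, with signals down to 2.52 units. Probe by probe and with no floor, KO minus WT at 12 h was 2.63 and 2.53 for miR-199a-5p. It was 1.94 and 1.90 for miR-199a-3p, and the miR-199a-5p probes had the larger differences untreated and at 24 h too. The part of the floor in the −0.30 was not tested. The ratio carries the unknown brightness of the probes, so only its change between groups can be read. The ratio of miR-199a-5p to miR-214 changed by 0.63 untreated, 0.00 at 12 h and 0.09 at 24 h, KO minus WT.

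**Figure D4:**
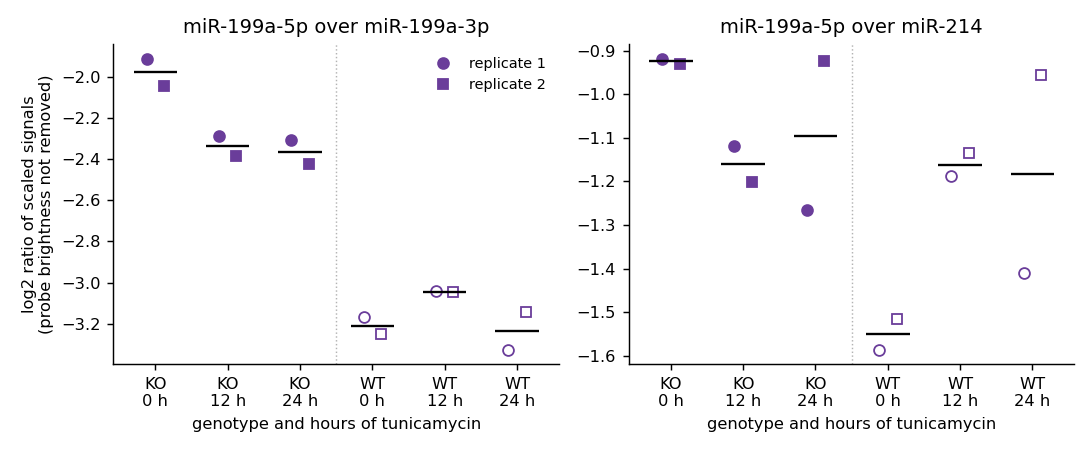
Log2 ratio of scaled signals on each array, miR-199a-5p over miR-199a-3p (left) and over miR-214 (right), by genotype and hours of tunicamycin; filled symbols are KO, open symbols WT, and lines group means. In the left panel all KO arrays lie between −1.91 and −2.42 and all WT arrays between −3.04 and −3.33, and in the right panel the genotypes overlap under tunicamycin.

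Of 8 names fixed as hairpin relatives, 2 were on the array, mmu-miR-199b* and mmu-miR-214*. The files do not say which arm of the Mir199b hairpin the name mmu-miR-199b* stands for. Its scaled signal in KO cells was 0.809 and 0.794 untreated, 0.641 and 0.597 at 12 h, and 0.691 and 0.424 at 24 h. In WT cells it was 0.473 and 0.482 untreated, 0.250 and 0.305 at 12 h, and 0.363 and 0.268 at 24 h. The group means stood in the same order as those of the members. KO minus WT was 0.90 ± 0.14 over the mean of the 3 times and was called (limma adjusted p = 0.00248), as was the 1.16 at 12 h (adjusted p = 0.0183). The 0.75 untreated (adjusted p = 0.0515) and the 0.80 at 24 h (adjusted p = 0.0775) missed the threshold. In WT cells miR-199b* fell by 0.79 on the log2 scale at 12 h (adjusted p = 0.0469). miR-214*, the other arm of the miR-214 duplex, was at the lower limit set for the scaled signal, 0.0322, on all 12 arrays, and its probes were marked as well above background on 2 of them, both untreated KO.

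The members resembled each other more than they resembled most other miRNAs on the array. Over the 12 arrays, which hold 6 groups and share their scaling, Pearson's r was 0.987 for miR-199a-5p with miR-214, 0.976 for miR-199a-5p with miR-199a-3p and 0.994 for miR-199a-3p with miR-214. Deviations from the group means also moved together, with r of 0.973, 0.979 and 0.987 for the same pairs. With 2 arrays a group, the 2 deviations of a group are equal and opposite, and the shared scaling enters them. They were largest in KO cells at 24 h, where the scaling percentiles were 203.5 and 566.3. Such joint movement was not particular to the members. With miR-199a-5p, r of these deviations was 0.963 for miR-27b and 0.956 for miR-193b. For miR-196a it was 0.941 with miR-199a-3p and 0.948 with miR-214. It was lower for miR-26a, at 0.713, 0.685 and 0.736 with miR-199a-5p, miR-199a-3p and miR-214. By Pearson's r over the 12 arrays, miR-199b* was among the nearest to all 3 members. It had 0.972 to miR-199a-5p, 0.996 to miR-199a-3p and 0.992 to miR-214, so it stood nearer to miR-199a-3p than either other member did. Beyond these, the 5 nearest to miR-199a-5p were completed by miR-218 (0.943) and miR-193b (0.909). Those of miR-199a-3p were completed by miR-26a (0.913) and miR-218 (0.913), and those of miR-214 by miR-218 (0.925) and miR-26a (0.913).

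The KO minus WT values of these 3 neighbours varied with the time. miR-26a, an abundant miRNA of many tissues, was well above background on 12 of 12 arrays and had KO minus WT differences of 0.12 untreated (limma adjusted p = 0.638), 1.39 at 12 h (adjusted p = 0.00184) and a called difference at 24 h (adjusted p = 0.00546), which was −0.00549 with normexp. In WT cells it fell by 1.21 on the log2 scale at 12 h (adjusted p = 0.00213). Unlike the members, its untreated WT arrays were thus close to its untreated KO arrays. miR-193b was well above background on 11 arrays, and its KO minus WT difference was 1.39 over the mean of the 3 times (adjusted p = 0.0112). It was 1.45 untreated (adjusted p = 0.0737), 1.85 at 12 h (adjusted p = 0.0456) and 0.89 at 24 h (adjusted p = 0.347). With the total gene signal the 12 h value was −1.68. miR-218 was well above background on 5 arrays and at the lower limit on 5, so most of its WT values are bounds. Its untreated KO minus WT difference was 1.02 (adjusted p = 0.0232), with 1 of 2 untreated WT arrays above background, and −2.96 with the total gene signal.

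**Figure D5:**
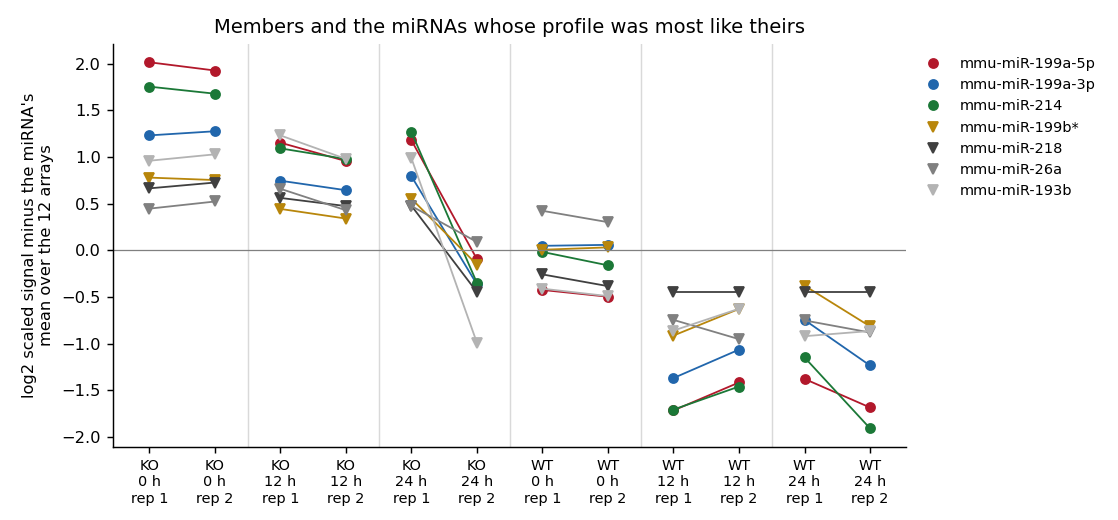
Log2 scaled signal minus the miRNA's own mean over the 12 arrays, for the 3 members (circles) and the miRNAs with the most similar profiles (triangles); lines join the 2 replicates of a group. The highest array of each is a KO array, and each is lower at KO replicate 2 than at replicate 1 at 24 h. The WT tunicamycin points are lowest for the members, for miR-199b* and for miR-26a, while miR-218 is flat there at its lower limit.

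Other miRNAs known for abundance in fibroblasts had, as a list, medians near those of all tested miRNAs for KO minus WT. Of 30 such names, none of them a member, 24 were tested. In untreated cells 3 were called higher and 9 lower in KO than in WT, where 6.90% and 25.5% of all tested miRNAs were, with a median of −0.39 beside −0.49 over all of them. Over the mean of the 3 times 6 were called higher and 9 lower, where 16.6% and 26.9% of all were, with a median of −0.07 beside −0.08. miR-222, a miRNA of proliferating cells, was −2.20 ± 0.35 in untreated cells (limma adjusted p = 0.00543), and miR-29b, which targets collagen mRNAs, was −1.36 ± 0.27 (adjusted p = 0.0110). The direction of miR-222 was the opposite of the members', except with normexp background correction, where it was 0.21.

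A list of 25 other miRNAs tied to the unfolded protein response by earlier work, chosen with results of these arrays known, had 15 tested names. In WT cells at 12 h of tunicamycin 9 of them were called lower and 0 higher, where 30.3% of all tested miRNAs were called lower, with a median of −0.72 beside −0.32 over all. In KO cells at 12 h 1 was called lower and 0 higher, where 0.690% of all were called lower, with a median of −0.10 beside 0.06. The list shares miR-222, miR-34a and others with the fibroblast list and holds miR-199b*. miR-34a, a p53 target, had −1.36 in WT cells at 12 h (limma adjusted p = 0.0456) and miR-222 had −1.63 (adjusted p = 0.0139). In untreated cells 1 of the 15 was called higher in KO and 5 lower, where 6.90% and 25.5% of all tested miRNAs were.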

How the data were processed

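Total RNA of 12 MEF cultures was labelled with Cy3 and hybridised, 1 sample per array, to Agilent miRNA arrays. Per the submitters' processing notes, Agilent Feature Extraction 10.7.1.1 read the scans. Per the file headers, the intensity values deposited by the authors are background-subtracted spot signals with no scaling between arrays. The deposited value table holds log2 values that match the software's total gene signal, neither scaled nor centred, and it is blank for undetected miRNAs. The 0 or 1 flags for background, saturation and outliers are other columns deposited by the authors. From these, spots flagged as outliers were left out, probe means were summed per miRNA, divided by each array's 75th percentile and floored at 0.0322 (log2 −4.96), and the log2 was taken. On each array the 1st percentile of the detected scaled signals was found, and the median of these set the floor.

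A miRNA was tested if some group had it well above background on each of its 2 arrays, which gave 145. limma 3.58.1 in R 4.3.3 fitted the 6 group means over all 12 arrays (6 residual degrees of freedom), with Benjamini-Hochberg adjustment over all 145, a threshold of 0.05 and 12 comparisons. The code was tested on simulated data. The members and lists were chosen with earlier results of these data known. Named beside them are the 5 miRNAs with the highest correlation to each member and examples with the largest differences in each list. Alternatives changed the background, scaling, filter, probe summary, blocks and arrays used. The normexp alternative used median spot signals, since the files hold no mean signal. Same-numbered arrays of 1 scan deviated together (r 0.68 to 0.95, 7 pairs), and pairs across untreated and tunicamycin arrays deviated in opposite ways (−0.54 to −0.24, 8 pairs). The numbers were thus not taken to pair untreated with tunicamycin samples. The main fit also held no term for the scan that KO and WT arrays shared, so its p values leave that pairing out. Fits with the scan or the replicate as a block were run as alternatives. Arrays hold no counts, so their number limits the precision.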

Additional observations from a re-analysis of the deposited data

Results flagged for a closer look

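A signal appeared for miR-214* in a column that the comparisons above do not use, the software's total gene signal. It was 947.985 and 1024.85 units in the untreated KO arrays (replicates 1 and 2), 9.89 and 10.00 in the authors' deposited log2 table, and 0.1, the value for not detected, on the other 10 arrays. The own probes of miR-214* totalled 4.43 and 4.95 units on those 2 arrays, and the total gene signal of miR-214, the name before it in name order, was 943.554 and 1019.9. The sum of these equals the value given for miR-214*. Of 1849 detected values on the 12 arrays, 528 (of 146 names) exceeded 1.5 times their own probes' total, and 526 of those equalled their own probes plus the last detected name before them, within 0.2%. None was a value of miR-199a-5p, miR-199a-3p or miR-214, and no value of that column enters the comparisons above.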

How the results depend on the processing

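The KO minus WT values of the 3 members stayed above 0 in all 357 combinations of member, time and alternative or left-out array, and 53 differences called under neither setting changed sign, most of them between the tunicamycin responses or times. Counts of members called, beside 3 untreated, 3 at 12 h, 2 at 24 h and 3 over the mean for KO minus WT, and 1 in WT at 12 h and 0 elsewhere for tunicamycin, changed as follows, and where no construction shows it the cause was not tested. Normexp called 0 in each KO minus WT comparison and in WT at 12 h; without spots of outlying local background, a choice made after seeing the data, it called 2 at 12 h and 0 at 24 h for KO minus WT, 0 in WT at 12 h and 1 in KO at 24 h. The 75th percentile over all names and quantile normalization both called 0 untreated, at 12 h and at 24 h, and 0 in WT at 12 h, and the first called 2 over the mean. Median scaling called 1 untreated, 0 at 24 h and 0 in WT at 12 h. With no scaling, 3 were called lower in each of the 4 tunicamycin comparisons and 3 higher at 24 h for KO minus WT. Over all tested miRNAs, no scaling called 36 and 63 lower in WT and 18 and 55 in KO, at 12 h and 24 h. It called 4 of all tested miRNAs higher at 24 h for KO minus WT. Total gene signal called 1 untreated, 1 at 24 h and 0 in WT at 12 h. The deposited table called 0 in WT at 12 h, 3 in WT at 24 h and 3 in KO at 24 h. The mean of the probes' log2 called 1 at 24 h and 1 in KO at 24 h. Requiring signal on all arrays called 3 in WT at 12 h and 3 at 24 h for KO minus WT, and on at least 1 array called 2 untreated and 1 at 24 h. The spread of the compared groups alone called 0 at 24 h, 2 for the difference of the responses at 12 h, 3 in WT at 12 h and 1 in WT at 24 h; it was not run for the mean of the times. The replicate block called 2 in WT at 12 h and changed no other call count; with the untreated numbers crossed, chosen after seeing the data, no count changed. The scan as a random block called 3 at 24 h for KO minus WT; as a fixed block it called 1 and gives no tunicamycin minus untreated value. Leaving out 1 array gave 1 to 3 untreated, 1 to 3 at 12 h, 0 to 3 at 24 h and 3 to 3 over the mean for KO minus WT. For tunicamycin it gave 0 to 3 in WT at 12 h, 0 to 3 in WT at 24 h, 0 to 1 in KO at 12 h and 0 to 3 in KO at 24 h. It gave 0 to 3 for 24 h minus 12 h in KO, 0 to 0 for the same in WT, 0 to 0 for the difference of the responses at 12 h and 0 to 1 at 24 h. Where no share over all tested miRNAs stands beside a count of members, it is not given.

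The ratio of miR-199a-5p to miR-199a-3p, the latter shared with Mir199b, moved as follows from its KO minus WT values above. Those were 1.23 untreated, 0.71 at 12 h, 0.87 at 24 h and 0.94 over the mean. Normexp gave −0.36 at 12 h, −0.79 at 24 h and 0.0232 over the mean; without outlying spots it gave 0.48 untreated, −0.34 at 12 h, −0.25 at 24 h and −0.0351 over the mean. The mean of the probes' log2 gave 0.95, −0.30, 0.0248 and 0.23. Total gene signal and the deposited table both gave 0.85 at 12 h, 1.02 at 24 h and 1.03 over the mean. For tunicamycin minus untreated the ratio changed by −0.36 and −0.39 in KO cells and 0.16 and −0.03 in WT cells at 12 h and 24 h. Normexp gave −0.84 and −0.62 in KO and 0.74 and 1.39 in WT, and without outlying spots −0.10 and 0.12 in KO and 0.71 and 0.84 in WT. The mean of the probes' log2 gave −0.50 in KO at 12 h and 0.76 and 0.55 in WT. Total gene signal and the deposited table gave 0.0205 and −0.17 in WT.

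Among the other miRNAs, normexp turned miR-222 to 0.21 (untreated KO minus WT) and miR-26a to −0.00549 at 24 h. Total gene signal and the deposited table gave miR-218 −2.96 and −2.62 untreated, and miR-193b −1.68 and −1.75 at 12 h (1.85 above) and −0.43 and −0.32 over the mean; these are the values to which the software adds the total of another name. With 2 arrays a group, dim signals of miR-199a-5p in WT cells limit what the arrays can show.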
